A study of Gallus gallus with 9 samples.

Results

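Retinoic acid was the single labelled difference between the 2 groups described here, which were 3 arrays of cells given an adipogenic cocktail plus 10 uM retinoic acid and 3 arrays of cells given the cocktail alone. The cells were preadipocytes, the precursors of fat cells, isolated from adipose tissue of laying hens and treated when confluent. The cocktail is named DMIOA in the labels, which do not expand the name. The tested arrays were chosen by the title that names retinoic acid and the arrays set against them by the title that names DMIOA alone, 6 of the 9 arrays of the series. The other 3 arrays, of untreated preadipocytes, entered the fit for its estimate of the spread and are quoted as a further level. Replicates were numbered 1 to 3 in each group. The labels do not tie a number to a hen or a culture, so a p-value measures how far these samples spread, which may be technical. Titles of DMIOA and control arrays carry a trailing "(2)" that is missing from titles of retinoic acid arrays. Its meaning is unstated, and anything that it marks cannot be told apart from retinoic acid.

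Retinoic acid is the active form of vitamin A. It binds nuclear receptors of the RAR family, which sit on DNA as partners of RXR receptors and switch target genes on when the ligand arrives. Among the textbook targets are the CYP26 enzymes that destroy retinoic acid, the receptor gene RARB and the HOX genes at the 3-prime side of their clusters, which pattern the embryonic body axis. In mouse preadipocyte lines retinoic acid given early is known to block the formation of fat cells.

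The array measured RNA of each culture as log2 GCRMA values for chicken probe sets, and 12329 of 37693 chicken probe sets were kept because 3 or more arrays reached a log2 value of 5. They held 6945 named genes, each represented by its probe set with the highest mean. Fibroblast and preadipocyte markers were present, with 10 of 13 at or above 5 on some array, among them COL1A1, DCN and THY1, while PDGFRA was under 5 on every array. Of 11 mature adipocyte markers 6 were under 5 on every array, ADIPOQ and PLIN1 among them, as were all 7 erythroid and all 8 neural markers. Replicate 3 stood apart in all groups. Of 21 macrophage and leukocyte markers, 2, 3 and 13 were at or above 5 on the retinoic acid arrays of replicates 1, 2 and 3, against 2, 2 and 15 on the DMIOA arrays and 1, 3 and 16 on the control arrays. The summed log2 level of that list was 57.0, 57.5 and 119.4 on the retinoic acid arrays, against 52.3, 53.6 and 136.3 on the DMIOA arrays, and 5 of its members were under 5 on all 9 arrays. Retinoic acid replicates 1 and 2 differed least of all array pairs (r = 0.997 over the kept probe sets), with a median absolute log2 difference of 0.0672, against 0.292 for DMIOA replicates 1 and 2 and 0.117 for control replicates 1 and 2. The labels call them separate biological replicates.

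The groups were compared in a fit that pairs arrays by replicate number, since arrays of the same number deviated together from their group means. That rested mainly on replicate 3, which stood apart in every group. Deviations of retinoic acid replicate 1 correlated with those of DMIOA replicates 1 and 2 at r = 0.579 and 0.423. For retinoic acid replicate 2 the values were 0.606 and 0.375. The deviations thus do not show that the numbers 1 and 2 mark pairs. Retinoic acid changed 1336 of 12329 probe sets at an adjusted p under 0.05, which is 10.8% (limma, Benjamini-Hochberg). Of these 686 rose (5.56%) and 650 fell (5.27%), and 3343 probe sets had an unadjusted p under 0.05. Over named genes the count was 727 of 6945 (10.5%), 381 higher (5.49%) and 346 lower (4.98%). At least a 2-fold fitted change was reached by 166 of the higher and 185 of the lower genes, together 5.05% of all named genes, at least 4-fold by 68 and 53 and at least 8-fold by 41 and 20. Both directions were thus about equally common, and the fitted changes of at least 8-fold were more often rises. These fitted changes take values under 5 as they stand, so they can exceed the bounded folds given below. The arrays of the 2 groups did not overlap for 22.1% of named genes. At an unadjusted p under 0.05 by limma, 1038 of the 6945 named genes were higher and 808 lower. Counts at that p in the lists below stand against these. In bulk RNA fewer cells of a type and less RNA per cell cannot be told apart.

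The total depended on the arrays that gave it. Without the pairing, 479 probe sets were called (3.89%), 261 higher (2.12%) and 218 lower (1.77%), and 259 named genes (3.73%). Of the 727 genes, 175 stayed called when any 1 of the 9 arrays was left out, 105 higher and 70 lower. In probe sets, the total of 1336 became 371 without retinoic acid replicate 1, 378 without retinoic acid replicate 2 and 535 without DMIOA replicate 3. It was 673 without DMIOA replicate 1, 809 without control replicate 1 and 1560 without retinoic acid replicate 3. With replicates 1 and 2 of each group averaged into 1 sample, 313 probe sets were called. Of the 727, 12 were under 5 on both arrays of 2 or 3 of the pairs, which the test does not take into account. Where the call of a gene described below was lost on leaving out an array, the highest adjusted p is given beside it. Averaging replicates 1 and 2 ended 40 calls of genes named below, and its adjusted p is given beside the 10 of them that no single array ended. For 251 called genes with further kept probe sets, 333 of the 334 other probe sets moved the same way, 220 of them past the threshold, and 0 were called the opposite way.

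**Figure D1:**
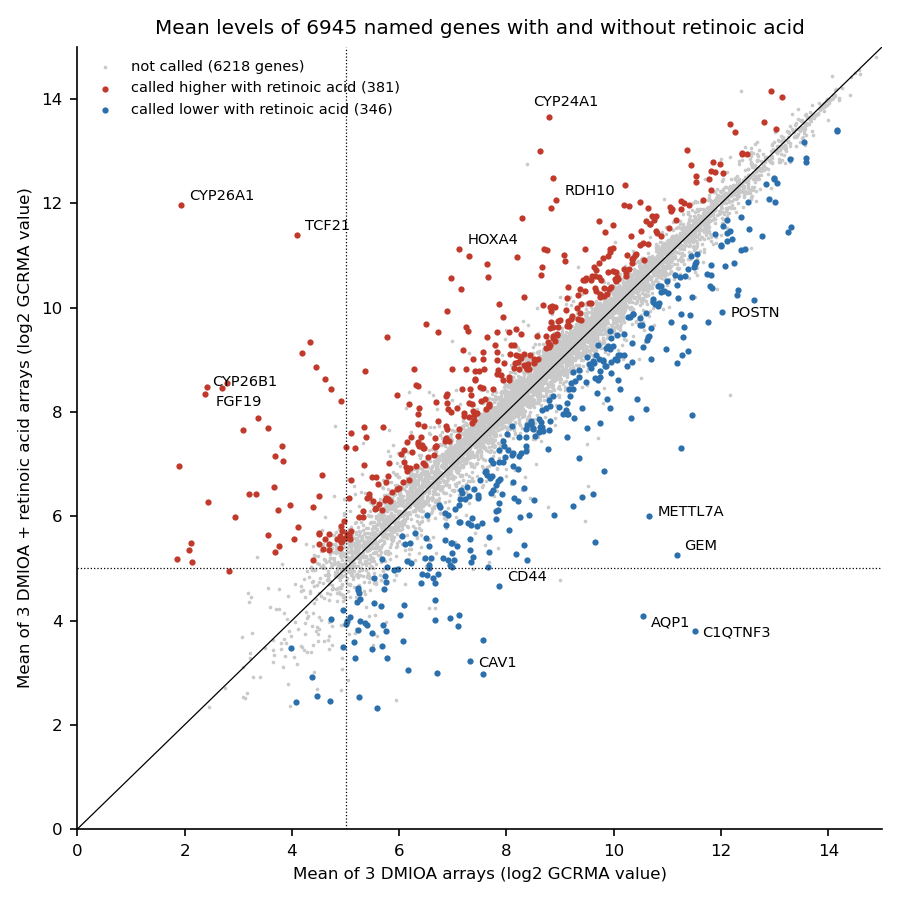
Mean log2 GCRMA value of each of 6945 named genes over the 3 DMIOA plus retinoic acid arrays (vertical axis) and over the 3 DMIOA arrays (horizontal axis); red and blue points are the 381 genes called higher and the 346 called lower with retinoic acid, and dotted lines mark a value of 5. CYP26A1 and TCF21 lie far above the diagonal and left of the dotted line, and C1QTNF3 and AQP1 far below it.

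The retinoid enzymes gave the largest rise of any called gene. Of 10 measured genes of retinoid metabolism and binding, 6 rose and 1 fell, with a median fitted log2 difference of 3.26, against 0.06 over all named genes. Without the pairing the same counts were obtained, and all 7 stayed called without any 1 of the 9 arrays. The called share was 70%, against 10.5% of all named genes, or 3.73% of them without the pairing. CYP26A1, CYP26B1 and CYP26C1 were under 5 on every other array, so they were measured only because of their retinoic acid arrays. That raises the share by construction. CYP26A1, the main enzyme that oxidises retinoic acid for removal, stood at 12.23, 12.37 and 11.30 on the retinoic acid arrays, against 1.88, 2.04 and 1.87 on the DMIOA arrays and 1.80, 1.88 and 2.03 on the control arrays. Wherever the dimmer group has values under 5, each is set to 5 and the fold is written "at least". By that measure CYP26A1 rose at least 125-fold (fitted log2 difference 10.04, SE 0.25, adjusted p = 3.58e-05).

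Its relatives followed from levels under 5 without retinoic acid. CYP26B1 had 8.26, 8.33 and 8.43 on the retinoic acid arrays, against 2.18, 2.52 and 2.42 on the DMIOA arrays, a rise of at least 10.1-fold (SE of the log2 difference 0.13, adjusted p = 3.58e-05). CYP26C1 reached 5.09, 5.05 and 6.33 with retinoic acid, against 1.91, 2.11 and 2.32 with DMIOA, a rise of at least 1.40-fold with an adjusted p of 0.00312. The 3 CYP26 genes were thus low on every array without retinoic acid, the control arrays included, and at or above 5 on every array with it.

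The enzymes that interconvert retinol and retinaldehyde, the precursor of retinoic acid, were already present and rose further. DHRS3, which reduces retinaldehyde back to retinol, was at 12.47, 12.45 and 12.53 on the retinoic acid arrays, against 10.13, 8.86 and 7.62 on the DMIOA arrays. It rose 12.3-fold (log2 difference 3.62, SE 0.47, adjusted p = 0.00822), and 7.97-fold without retinoic acid replicate 3. With replicates 1 and 2 averaged its adjusted p was 0.0506. RDH10, which works in the opposite direction and oxidises retinol, was at 12.01, 12.05 and 12.13 with retinoic acid, against 8.97, 9.11 and 8.70 with DMIOA, a rise of 8.80-fold (adjusted p = 0.000278). The retinoic acid arrays of both genes lay within a narrow band, while the DMIOA arrays of DHRS3 spread over more than 2 log2 units.

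RBP5, a cellular retinol-binding protein, was at 9.95, 9.81 and 8.55 on the retinoic acid arrays, against 5.42, 6.59 and 5.28 on the DMIOA arrays (12.7-fold, adjusted p = 0.00191). The gene that fell was ALDH1A3, an enzyme that makes retinoic acid from retinaldehyde. It had 9.99, 10.08 and 9.12 on the retinoic acid arrays, against 12.25, 11.98 and 11.04 on the DMIOA arrays and 12.27, 12.22 and 11.15 on the control arrays. The fall was 4.07-fold (log2 difference -2.02, SE 0.11, adjusted p = 0.000468), and replicate 3 was the lowest array of each group. The related ALDH1A1 did not pass the test (log2 difference -0.03, adjusted p = 0.92). RBP7, another cellular retinoid-binding protein, had a log2 difference of -3.56 and did not pass either (adjusted p = 0.099).

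Of 7 measured genes in the list of receptors and coregulators, 2 rose and 1 fell, and 1 and 0 did so without the pairing. The called share was 42.9%, against 10.5% of all named genes, or 3.73% of them without the pairing. RARB, the receptor gene that carries a retinoic acid response element in mammals, was at 11.14, 11.14 and 10.42 on the retinoic acid arrays, against 10.09, 9.40 and 7.79 on the DMIOA arrays. It rose 3.50-fold (adjusted p = 0.0206), a call lost without DMIOA replicate 2, DMIOA replicate 3 or retinoic acid replicate 2 (highest adjusted p = 0.0909) and without the pairing (adjusted p = 0.264). NRIP1, a corepressor that ligand-bound nuclear receptors recruit, was at 10.93, 11.00 and 10.92 with retinoic acid, against 10.05, 9.73 and 9.62 with DMIOA, a rise of 2.22-fold (adjusted p = 0.00397). The fall was that of TGM2, tissue transglutaminase, which is an enzyme and neither a receptor nor a coregulator. Retinoic acid induces TGM2 in mammalian cells, while it fell here. It had 3.69, 3.79 and 5.70 on the retinoic acid arrays, against 5.74, 7.34 and 6.92 on the DMIOA arrays (adjusted p = 0.0437). That call was lost on leaving out any 1 of the 9 arrays except retinoic acid replicate 3 and control replicate 3 (highest adjusted p = 0.166), and without the pairing (adjusted p = 0.0807).

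**Figure D2:**
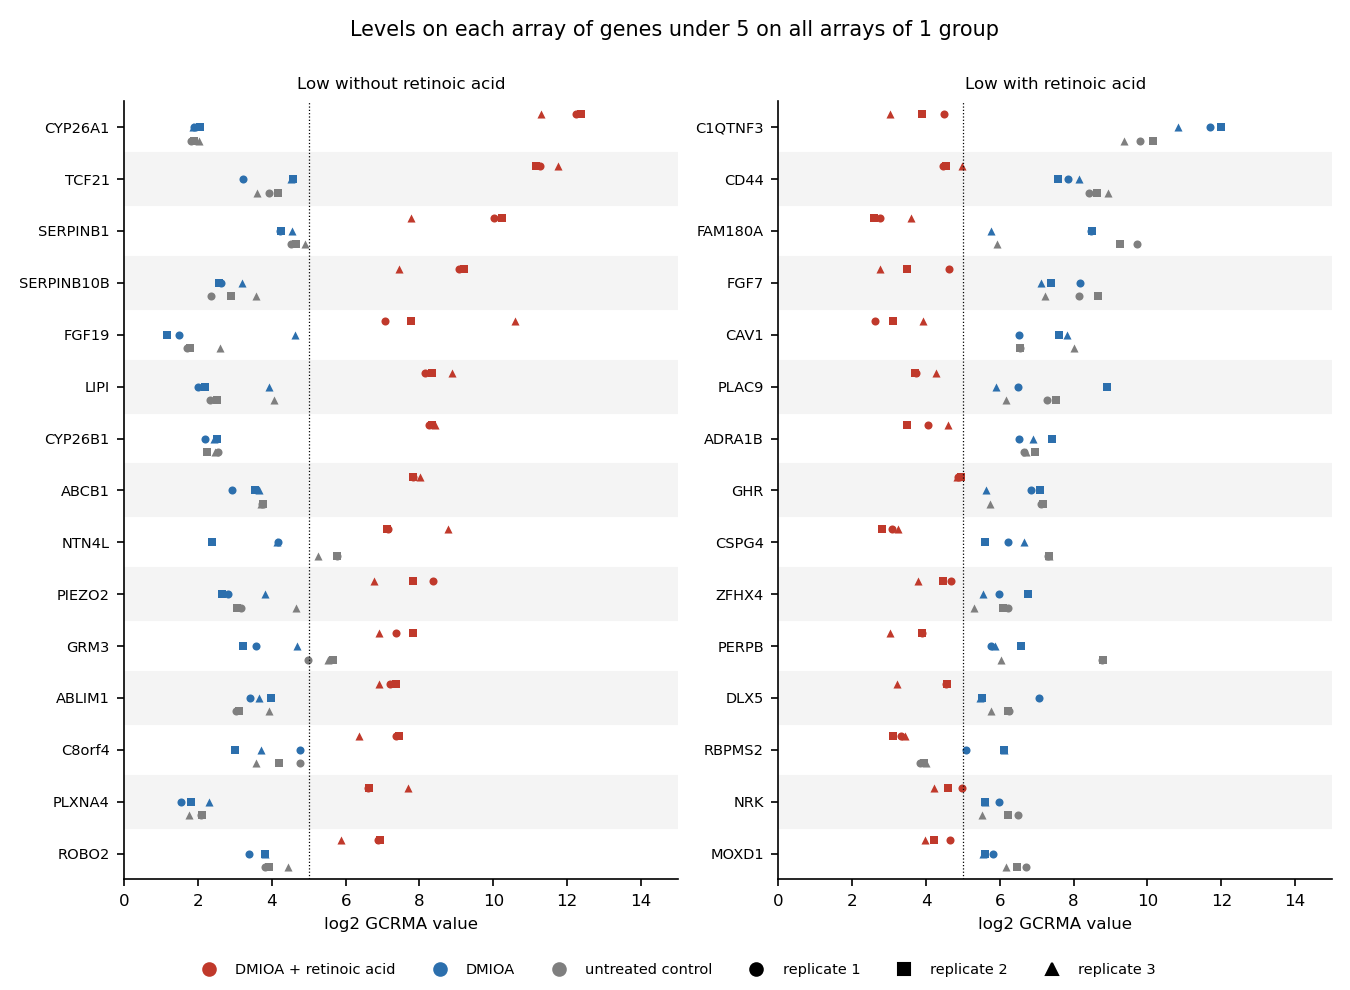
Log2 GCRMA value on each array (horizontal axis) of the 15 genes with the largest bounded fold among those under 5 on all DMIOA arrays (left) and among those under 5 on all retinoic acid arrays (right); red, blue and grey are DMIOA plus retinoic acid, DMIOA and control, the marker gives the replicate number, and the dotted line is at 5. The grey control points lie on the side of the blue DMIOA points for most genes.

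Genes that were low without retinoic acid were listed by a fixed border: under 5 on all 3 DMIOA arrays, at or above 5 on all 3 retinoic acid arrays, and called. There were 35 such named genes. Because the border and the call chose them, their counts are a description. Of the 35, 29 were also under 5 on all 3 control arrays, and 1 was at or above 5 on all of them. The 29 were kept only through their retinoic acid arrays, which raises the called share of any gene list that holds them. By the bounded fold 20 rose at least 2-fold, 13 at least 4-fold and 7 at least 8-fold. On the DMIOA arrays 8 of the 35 were under 3 throughout, and 10 lost their call when some 1 array was left out.

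TCF21, a basic helix-loop-helix factor of mesenchymal precursors, was at 11.26, 11.16 and 11.76 on the retinoic acid arrays, against 3.21, 4.56 and 4.52 on the DMIOA arrays and 3.93, 4.16 and 3.60 on the control arrays. It rose at least 84.1-fold (log2 difference 7.30, SE 0.34, adjusted p = 0.000355). No other called gene except CYP26A1 had a larger fitted rise. FGF19, a secreted growth factor that acts on bile acid and energy metabolism in mammals, was at 7.08, 7.76 and 10.58 with retinoic acid, against 1.49, 1.17 and 4.62 with DMIOA. It rose at least 11.1-fold (adjusted p = 0.00237), which became at least 18.0-fold without retinoic acid replicate 1 and at least 5.35-fold without retinoic acid replicate 3. Its replicate 3 was the highest array of both groups.

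LIPI, a membrane-associated phospholipase, was at 8.14, 8.35 and 8.88 on the retinoic acid arrays, against 2.00, 2.19 and 3.91 on the DMIOA arrays (at least 11.0-fold, adjusted p = 0.000278). ABCB1, the multidrug efflux pump, was at 7.82, 7.83 and 8.0 with retinoic acid, against 2.92, 3.54 and 3.65 with DMIOA (at least 7.39-fold, adjusted p = 0.000155). PIEZO2, a channel opened by mechanical force, had 8.38, 7.81 and 6.76 with retinoic acid, against 2.82, 2.64 and 3.82 with DMIOA (at least 6.27-fold, adjusted p = 0.00797, and 0.0777 with replicates 1 and 2 averaged). All 3 were well separated between the groups, and all 3 were under 5 on every control array. MME, the membrane peptidase neprilysin, had 6.08, 5.79 and 6.93 with retinoic acid, against 2.09, 2.69 and 2.56 with DMIOA (at least 2.41-fold, adjusted p = 0.000583).

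Genes known from nerve cells and from axon guidance were also in the group. PLXNA4, a receptor for semaphorins, was at 6.61, 6.62 and 7.68 with retinoic acid, against 1.55, 1.81 and 2.31 with DMIOA (at least 3.91-fold, adjusted p = 0.000474). ROBO2, a receptor for SLIT proteins, was at 6.87, 6.94 and 5.86, against 3.38, 3.83 and 3.81 with DMIOA (at least 2.94-fold, adjusted p = 0.00585, and 0.0641 with replicates 1 and 2 averaged). GRM3, a metabotropic glutamate receptor, was at 7.35, 7.81 and 6.90 with retinoic acid, against 3.57, 3.21 and 4.67 with DMIOA. GRM3 missed the threshold with replicates 1 and 2 averaged (adjusted p = 0.0591). Its control arrays lay at 4.99, 5.66 and 5.52, between the other 2 groups. ABLIM1, an actin-binding protein, was at 7.20, 7.36 and 6.90 with retinoic acid, against 3.41, 3.97 and 3.65 with DMIOA (at least 4.45-fold, adjusted p = 0.00161). NTN4L, annotated as similar to the guidance protein netrin 4, was the 1 gene of the 35 at or above 5 on all control arrays. It had 7.16, 7.11 and 8.78 with retinoic acid, against 4.16, 2.38 and 4.15 with DMIOA and 5.77, 5.77 and 5.25 in controls (at least 6.43-fold, adjusted p = 0.00795).

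Some genes with rises of similar size were left out of the 35 by 1 DMIOA array. RELN, the secreted glycoprotein reelin, was at 8.72, 8.82 and 9.03 on the retinoic acid arrays, against 3.67, 4.14 and 5.54 on the DMIOA arrays (at least 12.8-fold, adjusted p = 0.00444, and 0.0529 with replicates 1 and 2 averaged). PTPN5, a tyrosine phosphatase known from the brain, was at 8.75, 8.74 and 8.39, against 4.05, 5.01 and 4.78 with DMIOA (at least 12.3-fold, adjusted p = 0.00448). IQSEC3, an activator of ARF GTPases known from inhibitory synapses, was at 8.84, 9.0 and 9.56 with retinoic acid, against 3.40, 2.99 and 6.18 with DMIOA (at least 13.3-fold, adjusted p = 0.00304). RELN, PTPN5 and IQSEC3 were each above 5 on 1 DMIOA array, and their 2 groups did not overlap.

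The converse group, under 5 on all 3 retinoic acid arrays and at or above 5 on all 3 DMIOA arrays, held 24 named genes. Of these 21 were at or above 5 on all 3 control arrays and 2 under 5 on all of them. By the bounded fold 12 fell at least 2-fold, 6 at least 4-fold and 1 at least 8-fold, and 12 lost their call without some 1 array. C1QTNF3, a secreted relative of adiponectin, was the gene past 8-fold. It had 4.48, 3.90 and 3.02 on the retinoic acid arrays, against 11.70, 11.98 and 10.83 on the DMIOA arrays and 9.81, 10.16 and 9.36 on the control arrays. It fell at least 90.8-fold (log2 difference -7.70, SE 0.22, adjusted p = 5.43e-05), the largest fitted fall of any called gene.

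CD44, the cell surface receptor for hyaluronan, was at 4.45, 4.54 and 4.98 with retinoic acid, against 7.85, 7.58 and 8.13 with DMIOA and 8.41, 8.64 and 8.92 in controls (at least 7.24-fold lower, adjusted p = 0.000155). FGF7, keratinocyte growth factor, which fibroblasts secrete, was at 4.61, 3.49 and 2.75, against 8.17, 7.38 and 7.12 with DMIOA (at least 5.89-fold lower, adjusted p = 0.00184). CSPG4, the NG2 proteoglycan of pericytes and precursor cells, was at 3.09, 2.82 and 3.25, against 6.23, 5.59 and 6.66 with DMIOA (at least 2.23-fold lower, adjusted p = 0.000693). For these genes no retinoic acid array came within 2 log2 units of a DMIOA array. ADRA1B, an alpha-1 adrenergic receptor, was at 4.04, 3.47 and 4.61 with retinoic acid, against 6.51, 7.41 and 6.90 with DMIOA (at least 3.84-fold lower, adjusted p = 0.00512). ZFHX4, a zinc finger homeobox factor, was at 4.69, 4.45 and 3.77, against 5.99, 6.77 and 5.54 with DMIOA (at least 2.14-fold lower, adjusted p = 0.00514).

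GHR, the growth hormone receptor, had 4.85, 4.95 and 4.84 with retinoic acid, just under the border, against 6.84, 7.10 and 5.63 with DMIOA (at least 2.88-fold lower, adjusted p = 0.0205). FAM180A had 2.76, 2.58 and 3.59, against 8.46, 8.50 and 5.75 with DMIOA (adjusted p = 0.0268). Its bounded fall of 5.93-fold became 11.1-fold without DMIOA replicate 3. Both calls were lost on leaving out any 1 of the DMIOA arrays or retinoic acid replicate 1 or 2, and for FAM180A also without control replicate 2 (highest adjusted p = 0.0937 for GHR and 0.113 for FAM180A). Neither gene passed without the pairing (adjusted p = 0.113 for GHR and 0.0644 for FAM180A). The control arrays of both genes followed the DMIOA arrays, replicate 3 being the lowest.

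**Figure D3:**
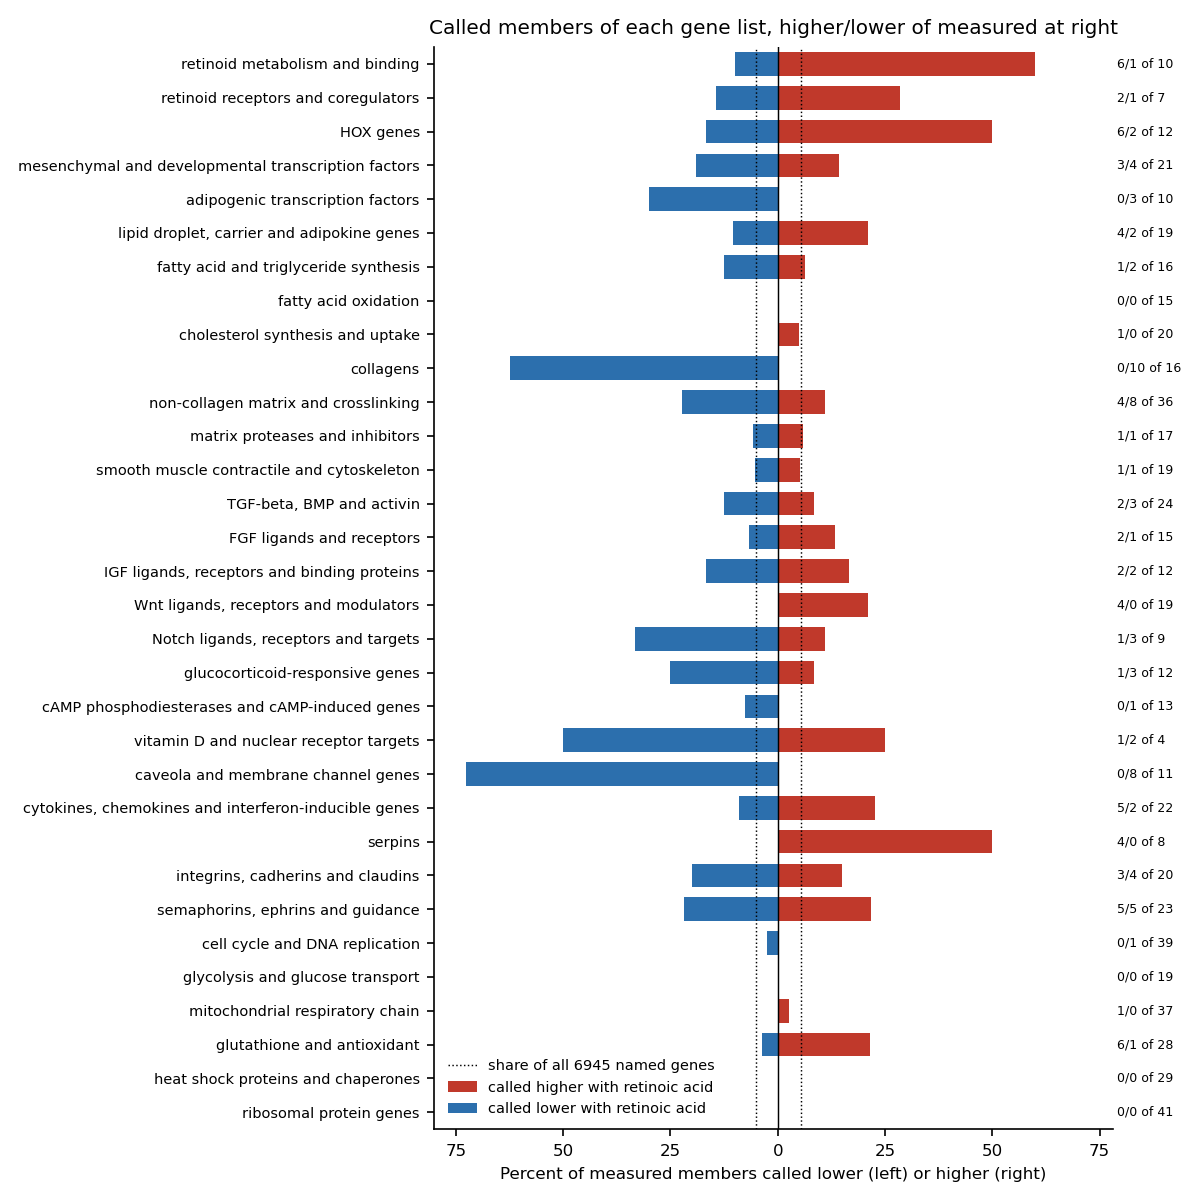
Percent of the measured members of each of 32 gene lists called higher (red, right) or lower (blue, left) with retinoic acid, with the counts higher/lower of measured at the right; dotted lines give the shares over all 6945 named genes, 5.49% higher and 4.98% lower. The retinoid enzymes, HOX genes and serpins reach furthest right, and the caveola and membrane genes, collagens and the 4-member vitamin D list furthest left. All lists were drawn up with earlier results of these data known, so their shares describe the choice as well as the cells.

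HOX genes, the homeobox factors of the body axis, moved in part. Of 12 measured members 6 rose and 2 fell, a called share of 66.7%, against 10.5% of all named genes. The higher ones came from positions 3 to 6 of the A cluster and positions 3 and 5 of the B cluster. HOXA4 was at 11.49, 11.52 and 10.37 on the retinoic acid arrays, against 7.65, 7.65 and 6.05 on the DMIOA arrays (16.1-fold, log2 difference 4.01, SE 0.13, adjusted p = 0.000124). HOXA5 was at 8.97, 9.12 and 7.21 with retinoic acid, against 5.40, 4.75 and 4.04 with DMIOA. It rose at least 9.84-fold (adjusted p = 0.00111), or at least 15.0-fold without retinoic acid replicate 3. Replicate 3 was the lowest array in every group for both genes, with the difference kept.

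HOXA3 was at 11.29, 11.29 and 10.48 with retinoic acid, against 9.37, 9.77 and 8.11 with DMIOA (3.83-fold, adjusted p = 0.00217, and 0.0847 without the pairing). HOXA6 was at 11.97, 11.89 and 11.11, against 9.82, 10.12 and 9.22 with DMIOA (3.84-fold, adjusted p = 0.000474). Members further along the A cluster did not pass the test, with log2 differences of -0.26 for HOXA7, 0.03 for HOXA9 and -0.13 for HOXA11. HOXD8 fell, with 4.67, 4.69 and 5.34 on the retinoic acid arrays, against 6.17, 7.36 and 6.62 on the DMIOA arrays (at least 3.04-fold lower, adjusted p = 0.018). Its call was lost without either of replicates 1 and 2 with retinoic acid or either of replicates 2 and 3 with DMIOA (highest adjusted p = 0.076). The other called members were HOXB3 and HOXB5, both higher, and HOXC9, lower. Of the 8 calls, 4 stood without any 1 of the 9 arrays, and without the pairing 4 were higher and 1 lower. HOXB5 and HOXC9 were among those that missed it (adjusted p = 0.379 and 0.058). HOXB3 lost its call without retinoic acid replicate 1 and without either of replicates 1 and 3 with DMIOA (highest adjusted p = 0.069), HOXB5 without any of those and without retinoic acid replicate 2 (0.0622), and HOXC9 without replicate 1 or 2 of any of the 3 groups (0.157).

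Of 21 mesenchymal and developmental transcription factors 3 rose and 4 fell, and 2 and 0 did so without the pairing. The called share was 33.3%, against 10.5% of all named genes, or 3.73% of them without the pairing. Besides TCF21 the higher ones were MSX1 and SNAI2. MSX1, a homeobox factor of mesenchyme, was at 7.94, 7.94 and 7.62 on the retinoic acid arrays, against 7.11, 6.75 and 6.30 on the DMIOA arrays (2.17-fold, adjusted p = 0.00854, 0.073 without the pairing and 0.0507 with replicates 1 and 2 averaged). The lower ones were PRRX2, DLX5, EBF1 and EBF3, none of which was called without the pairing (adjusted p = 0.0833, 0.0911, 0.159 and 0.0805). The calls that stood without any 1 array were those of TCF21 and MSX1. That of SNAI2 was lost without DMIOA replicate 1 or 2, retinoic acid replicate 1 or 2 or any 1 control array (highest adjusted p = 0.174), and that of DLX5 without retinoic acid replicate 1 and without either of replicates 1 and 3 with DMIOA (0.0898). PRRX2 kept its call only without retinoic acid replicate 3 or control replicate 3 (highest adjusted p = 0.187), EBF1 only without DMIOA replicate 1 (0.193) and EBF3 only without DMIOA replicate 1 or 2 (0.144).

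The vitamin D enzyme CYP24A1, which inactivates the vitamin D hormone, was at 13.67, 13.63 and 13.68 on the retinoic acid arrays, against 9.05, 7.90 and 9.41 on the DMIOA arrays and 8.14, 8.97 and 10.35 on the control arrays. It rose 29.3-fold (log2 difference 4.87, SE 0.47, adjusted p = 0.00309), and the 3 retinoic acid arrays agreed to within 0.1 log2 units. CYP27C1, which in zebrafish and humans desaturates retinoids, was at 3.95, 4.09 and 3.94 with retinoic acid, against 5.01, 5.59 and 5.23 with DMIOA (at least 1.21-fold lower, adjusted p = 0.00689).

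Serpins, a family of protease inhibitors, rose in their clade B members. Of 8 measured serpins 4 rose and 0 fell by limma, with the same counts without the pairing and at an unadjusted p under 0.05. The called share was 50%, against 10.5% of all named genes, or 3.73% of them without the pairing. SERPINB1 and SERPINB10B were under 5 on every other array, so they were measured only because of their retinoic acid arrays. That raises the share by construction. SERPINB10B was at 9.06, 9.20 and 7.43 on the retinoic acid arrays, against 2.63, 2.56 and 3.20 on the DMIOA arrays (at least 11.8-fold, adjusted p = 0.00309). SERPINB1, an inhibitor of neutrophil proteases in mammals, was at 10.02, 10.25 and 7.77, against 4.23, 4.26 and 4.54 with DMIOA (at least 20.3-fold, adjusted p = 0.00587, and at least 35.1-fold without retinoic acid replicate 3), with an adjusted p of 0.0682 when replicates 1 and 2 were averaged. SERPINB2, an inhibitor of plasminogen activators, was at 13.14, 13.21 and 12.66, against 8.12, 8.56 and 9.18 with DMIOA (20.9-fold, adjusted p = 0.00294). In all 3 genes the retinoic acid array of replicate 3 was lower than the other 2. SERPINB6 rose 2.90-fold (adjusted p = 0.0106), a call lost without retinoic acid replicate 1 or 2 (highest adjusted p = 0.0597). The 4 uncalled serpins, SERPINE2, SERPINF1, SERPINH1 and SERPINI1, had log2 differences of -0.08, -0.18, -0.26 and 0.21.

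Of 22 cytokine, chemokine and interferon-inducible genes 5 rose and 2 fell, and 3 and 1 did so without the pairing. The called share was 31.8%, against 10.5% of all named genes, or 3.73% of them without the pairing. TNFSF10, the death ligand TRAIL, was at 12.02, 11.96 and 11.78 on the retinoic acid arrays, against 8.27, 9.37 and 8.84 on the DMIOA arrays (8.55-fold, adjusted p = 0.00458). IFI27L2, an interferon-inducible gene, was at 10.86, 10.87 and 9.34, against 8.14, 7.21 and 6.08 with DMIOA (9.26-fold, adjusted p = 0.000474). Both calls stood without any 1 array. IL6, the inflammatory cytokine, was at 10.92, 10.96 and 9.85 with retinoic acid, against 8.22, 5.20 and 7.46 with DMIOA and 9.50, 10.06 and 9.61 in controls. It rose 12.3-fold (adjusted p = 0.0278), which became 5.89-fold without DMIOA replicate 2 and 18.6-fold without DMIOA replicate 1. The call was lost without DMIOA replicate 3 or retinoic acid replicate 1 or 2 (highest adjusted p = 0.117). CCL4, a chemokine, was at 10.29, 10.34 and 10.41 with retinoic acid, against 12.48, 11.59 and 12.88 with DMIOA (3.92-fold lower, adjusted p = 0.0114), a call lost without DMIOA replicate 3 or retinoic acid replicate 1 (highest adjusted p = 0.0573).

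ADA, adenosine deaminase, which breaks down adenosine, was at 8.81, 8.71 and 8.94 with retinoic acid, against 6.47, 6.20 and 6.15 with DMIOA (5.85-fold, adjusted p = 0.000369). It was among the most stable rises at levels above 5 on all arrays. Its control arrays, at 7.31, 7.43 and 7.39, lay between the other groups.

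**Figure D4:**
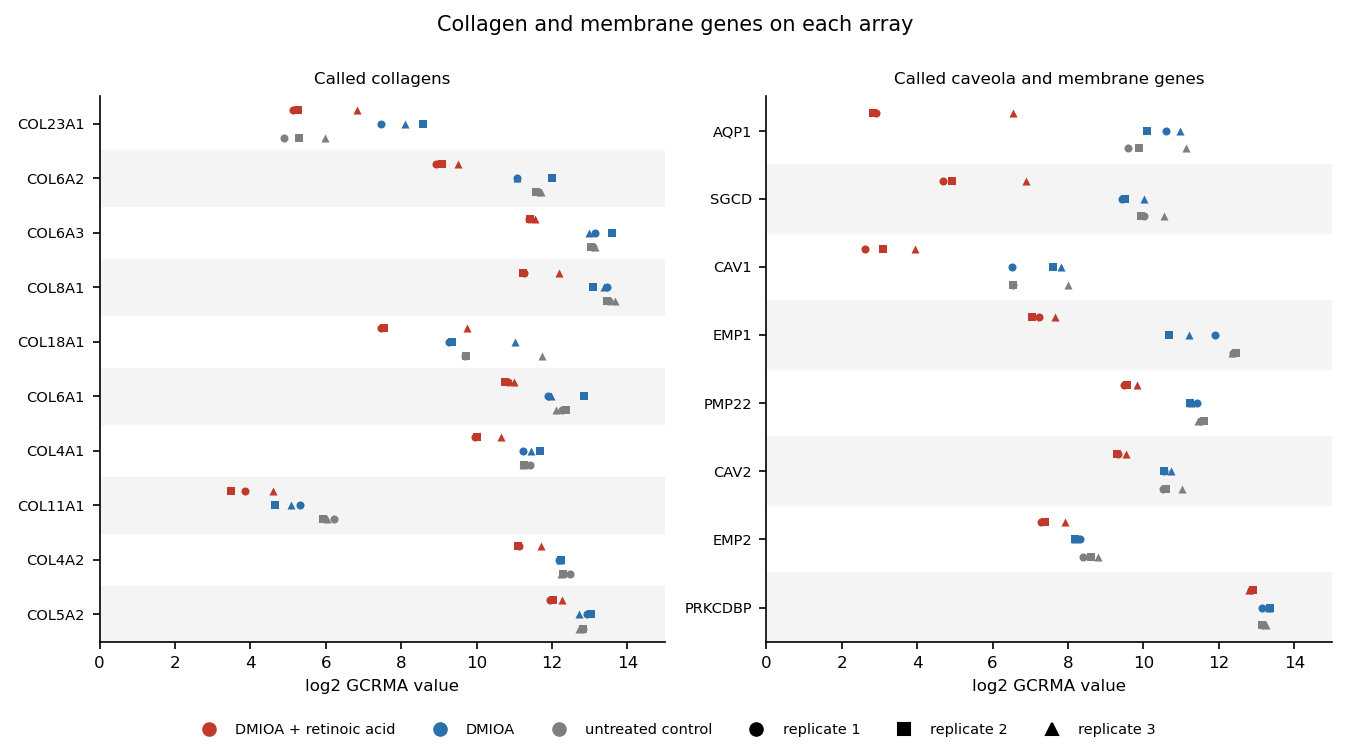
Log2 GCRMA value on each array (horizontal axis) of the called collagens (left) and of the called caveola and membrane genes (right), ordered by fitted difference; colours and markers stand for group and replicate number. In every row except that of COL18A1 each retinoic acid array lies below each DMIOA array.

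Collagens fell or did not pass the test. Of 16 measured collagens 10 fell and 0 rose by limma (12 and 0 at an unadjusted p under 0.05), with a median log2 difference of -1.14, and the paired medians were -1.17, -1.16 and -0.68 in replicates 1, 2 and 3. Without the pairing 8 were lower and 0 higher, and 4 of the 10 calls stood without any 1 of the 9 arrays. The called share was 62.5%, against 10.5% of all named genes, or 3.73% of them without the pairing. The chains of collagen VI, a beaded filament collagen around fat and muscle cells, were all lower. COL6A2 was at 8.92, 9.08 and 9.50 on the retinoic acid arrays, against 11.08, 11.99 and 11.07 on the DMIOA arrays (4.64-fold lower, adjusted p = 0.00621). COL6A3 was at 11.40, 11.43 and 11.55, against 13.15, 13.60 and 12.98 with DMIOA (3.45-fold lower, adjusted p = 0.00257). COL6A1 was 2.59-fold lower (adjusted p = 0.0171), a call lost without DMIOA replicate 3 or retinoic acid replicate 1 or 2 (highest adjusted p = 0.0662).

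COL8A1, a short-chain collagen, was at 11.26, 11.22 and 12.18 with retinoic acid, against 13.45, 13.08 and 13.38 with DMIOA (3.37-fold lower, adjusted p = 0.00557, and 0.0598 with replicates 1 and 2 averaged). COL18A1, the basement membrane collagen that contains endostatin, was at 7.47, 7.54 and 9.74, against 9.27, 9.34 and 11.03 with DMIOA. Its groups overlapped, since replicate 3 was higher in both, while the paired fall was 3.10-fold (adjusted p = 0.00164, and 0.39 without the pairing). The main fibrillar collagen stayed near its level: COL1A1 was at 13.88, 13.85 and 14.20 with retinoic acid, against 14.04, 14.25 and 14.29 with DMIOA (log2 difference -0.22, SE 0.11, adjusted p = 0.272), and COL1A2 had a difference of -0.18 (adjusted p = 0.349). Both stood near the highest value of any probe set, 14.96, where differences may be compressed. COL23A1, a transmembrane collagen, was the collagen with the largest fitted fall among those called. It was at 5.13, 5.27 and 6.82 with retinoic acid, against 7.48, 8.58 and 8.11 with DMIOA and 4.89, 5.28 and 5.98 in controls (4.99-fold lower, adjusted p = 0.0114), a call lost without retinoic acid replicate 1 (highest adjusted p = 0.0595). Its retinoic acid arrays thus lay nearer to the control arrays than its DMIOA arrays did. COL5A2 fell 1.76-fold (adjusted p = 0.016), which was lost without DMIOA replicate 1 or retinoic acid replicate 1 or 2 (highest adjusted p = 0.0873).

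Among 36 non-collagen matrix and crosslinking genes 8 fell and 4 rose, against 3 lower and 3 higher without the pairing. The called share was 33.3%, against 10.5% of all named genes, or 3.73% of them without the pairing. POSTN, periostin, was at 9.92, 9.98 and 9.84 with retinoic acid, against 12.03, 11.95 and 12.10 with DMIOA and 13.32, 13.52 and 13.32 in controls (4.32-fold lower, SE 0.11, adjusted p = 0.000398). THBS2, the matrix protein thrombospondin 2, was at 9.87, 9.61 and 8.81, against 11.38, 11.84 and 10.64 with DMIOA (3.63-fold lower, adjusted p = 0.00233, and 0.0763 without the pairing). P4HA2, a subunit of the prolyl hydroxylase that modifies collagen, moved the other way. It was at 12.24, 12.11 and 12.70 with retinoic acid, against 9.99, 10.43 and 10.24 with DMIOA (4.39-fold higher, adjusted p = 0.00431). MFAP2, a microfibril protein, was at 5.53, 5.63 and 6.24, against 3.85, 3.91 and 4.59 with DMIOA (at least 1.74-fold, adjusted p = 0.00204). FBLN1, fibulin 1, rose 2.16-fold (adjusted p = 0.011), a call lost without DMIOA replicate 3 or retinoic acid replicate 1 (highest adjusted p = 0.0568).

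Of 11 caveola and membrane genes 8 fell and 0 rose by limma (9 and 1 at an unadjusted p under 0.05), and 6 of the calls stood without any 1 array and 6 without the pairing. The called share was 72.7%, against 10.5% of all named genes, or 3.73% of them without the pairing. That list was drawn up with falls of its members in these data known, so its count describes the choice as well as the cells. CAV1, the scaffold protein of caveolae, was at 2.62, 3.10 and 3.93 on the retinoic acid arrays, against 6.52, 7.60 and 7.82 on the DMIOA arrays and 6.55, 6.55 and 8.0 on the control arrays (at least 4.97-fold lower, adjusted p = 0.000498). CAV2, its partner, was at 9.32, 9.30 and 9.54, against 10.54, 10.56 and 10.74 with DMIOA (2.34-fold lower, adjusted p = 0.0019). AQP1, a water channel, was at 2.91, 2.83 and 6.54, against 10.60, 10.08 and 10.96 with DMIOA. It fell at least 32.8-fold (log2 difference -6.45, SE 0.61, adjusted p = 0.00303). Retinoic acid replicate 3 was above the other 2 retinoic acid arrays for CAV1, CAV2 and AQP1.

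Endothelial cells are rich in caveolae. Most measured markers of that cell type, though not all, were lower in the same samples, some of them by little. Of 6 measured markers 2, ERG and PECAM1, fell and 0 rose by limma, and 0 were called without the pairing. The called share was 33.3%, against 10.5% of all named genes, or 3.73% of them without the pairing. At an unadjusted p under 0.05 there were 4 lower and 1 higher. With retinoic acid 5 of the 6 were lower in all 3 pairs. The same held for 1336 of 6929 named genes at or above 5 on at least 1 of the 6 arrays compared. FLT4, a receptor of lymphatic endothelium, was higher in all 3 pairs, at 5.04, 4.94 and 6.44, against 3.89, 3.63 and 5.24 with DMIOA. ERG, a transcription factor of endothelium, was at 8.87, 8.92 and 8.02 with retinoic acid, against 10.74, 9.68 and 9.84 with DMIOA (2.79-fold lower, adjusted p = 0.026). Its call was lost without DMIOA replicate 1 or 3, any 1 retinoic acid array or control replicate 2 (highest adjusted p = 0.103) and without the pairing (0.0516). PECAM1, an adhesion protein of endothelium and leukocytes, was at 3.89, 3.83 and 5.31, against 5.53, 4.99 and 6.06 with DMIOA (at least 1.34-fold lower, adjusted p = 0.0325), a call lost without any 1 DMIOA array, retinoic acid replicate 1 or 2 or control replicate 1 (highest adjusted p = 0.143) and without the pairing (0.217). CLDN5, a tight junction protein, was at 4.38, 4.18 and 7.79, against 8.07, 6.88 and 7.88 with DMIOA (adjusted p = 0.115), and CDH5, the endothelial cadherin, was at 7.89, 7.82 and 10.82, against 8.98, 8.64 and 10.93 with DMIOA (adjusted p = 0.118). Both were nearly level between the groups in replicate 3. LYVE1, the other marker lower in all 3 pairs, was at 8.38, 8.41 and 7.39, against 8.58, 8.42 and 7.82 with DMIOA, nearly level in replicate 2. The other 12 of 18 endothelial markers on the array were under 5 on all 9 arrays, KDR, TEK, TIE1 and VWF among them. The summed log2 level of the list was 67.4, 68.8 and 75.2 on the retinoic acid arrays, against 72.7, 68.7 and 75.1 on the DMIOA arrays. The 12 markers under 5 throughout enter that sum and can hide changes in the other 6. The part of endothelial markers in the fall of the caveola genes was not tested.

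SGCD, a sarcoglycan that links the cytoskeleton to the matrix, was at 4.69, 4.93 and 6.89 with retinoic acid, against 9.43, 9.50 and 10.02 with DMIOA. It fell at least 16.2-fold (adjusted p = 0.00188), or at least 25.1-fold without retinoic acid replicate 3. EMP1, an epithelial membrane protein, was at 7.24, 7.05 and 7.64, against 11.90, 10.68 and 11.20 with DMIOA (15.4-fold lower, adjusted p = 0.000953). PMP22, a relative of EMP1 known from myelin, was at 9.48, 9.57 and 9.83, against 11.43, 11.23 and 11.27 with DMIOA (3.21-fold lower, adjusted p = 0.00164). For SGCD and PMP22 each DMIOA array lay within 1 log2 unit of the control array of its number, while the control arrays of EMP1, at 12.37, 12.44 and 12.34, were all above its DMIOA arrays.

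GEM, a small GTP-binding protein induced by cAMP and growth signals, was the 1 called gene among 13 of the cAMP list (7.69%, against 10.5% of all named genes). It was at 4.68, 4.76 and 6.30 with retinoic acid, against 11.62, 11.23 and 10.66 with DMIOA and 11.22, 11.42 and 10.80 in controls (at least 53.3-fold lower, adjusted p = 0.00204). MYH15, a myosin heavy chain, was at 7.50, 7.66 and 8.67, against 11.61, 10.71 and 12.08 with DMIOA (11.5-fold lower, adjusted p = 0.000474). Of 26 skeletal muscle markers on the array 21 were under 5 on every array. CDO1, cysteine dioxygenase, was at 5.87, 5.83 and 6.38, against 8.90, 9.15 and 8.58 with DMIOA (7.23-fold lower, adjusted p = 0.00137). LMO7, a LIM domain protein of cell junctions, was at 8.59, 8.68 and 9.99, against 10.75, 10.81 and 12.27 with DMIOA (4.57-fold lower, adjusted p = 0.000444, and 0.0804 without the pairing). Its replicate 3 was higher in both groups.

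Of 12 glucocorticoid-responsive genes 3 fell and 1 rose, with the same counts without the pairing. The called share was 33.3%, against 10.5% of all named genes, or 3.73% of them without the pairing. METTL7A, a methyltransferase-like protein of lipid droplets and the endoplasmic reticulum, was at 6.12, 6.79 and 5.10 on the retinoic acid arrays, against 10.74, 10.85 and 10.38 on the DMIOA arrays and 10.28, 10.22 and 10.17 on the control arrays (25.2-fold lower, adjusted p = 0.000687). KLF15, a zinc finger factor that glucocorticoids induce and that promotes fat cell formation in mouse cells, was at 6.48, 6.40 and 5.71, against 9.74, 9.85 and 8.16 with DMIOA (8.28-fold lower, adjusted p = 0.000713). FKBP5, a cochaperone of the glucocorticoid receptor and its classical target, was at 6.50, 7.0 and 7.10, against 8.59, 10.61 and 10.23 with DMIOA and 8.06, 8.17 and 8.98 in controls (7.69-fold lower, adjusted p = 0.00633). With DMIOA alone METTL7A and KLF15 differed from the control array of the same number by less than 1 log2 unit, while FKBP5 was above it in each replicate, most in replicate 2.

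ANGPTL4, an inhibitor of lipoprotein lipase that also responds to PPAR ligands, moved the other way. It was at 7.53, 7.64 and 7.64 with retinoic acid, against 4.27, 5.07 and 5.99 with DMIOA (at least 4.76-fold higher, adjusted p = 0.00932), a call lost without retinoic acid replicate 1 or 2 (highest adjusted p = 0.0527). CRISPLD2, another glucocorticoid target, had a log2 difference of -2.94 that did not pass the test (adjusted p = 0.052).

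Of 10 adipogenic transcription factors 3 fell and 0 rose by limma (5 lower and 1 higher at an unadjusted p under 0.05). Their median log2 difference was -0.83, and 1 was lower without the pairing. The called share was 30%, against 10.5% of all named genes, or 3.73% of them without the pairing. KLF15, described above, was the 1 member whose call stood without any 1 array, and the others were EBF1 and STAT5A (adjusted p = 0.159 and 0.143 without the pairing). STAT5A kept its call on leaving out DMIOA replicate 2 and lost it without any other array (highest adjusted p = 0.192). PPARG, the master regulator of fat cell formation, was at 8.14, 8.22 and 6.91 on the retinoic acid arrays, against 9.63, 9.04 and 8.05 on the DMIOA arrays and 10.41, 10.26 and 7.11 on the control arrays. It was lower in all 3 pairs and did not pass the test (log2 difference -1.15, SE 0.44, adjusted p = 0.156).

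Of 19 lipid droplet, carrier and adipokine genes 4 rose and 2 fell by limma, C1QTNF3 and LIPI among them. At an unadjusted p under 0.05 there were 5 higher and 7 lower, and 3 and 1 were called without the pairing. The called share was 31.6%, against 10.5% of all named genes, or 3.73% of them without the pairing. Of 5 measured mature adipocyte markers 1, LPL, fell and 0 rose by limma, with 4 lower and 0 higher at an unadjusted p under 0.05 and 0 called without the pairing. Their called share was 20%, against 10.5% of all named genes. The median log2 difference of the 5 markers was -1.15, and 4 of them, FABP4, LPL, PPARG and G0S2, were lower with retinoic acid in all 3 pairs. The same held for 1336 of 6929 named genes at or above 5 on at least 1 of the 6 arrays compared. G0S2, an inhibitor of the lipase that opens fat stores, was at 11.78, 11.78 and 7.04 with retinoic acid, against 12.16, 12.36 and 10.00 with DMIOA, and did not pass the test (adjusted p = 0.151). FABP4, the fatty acid carrier of fat cells and macrophages, was at 6.41, 6.26 and 12.28 on the retinoic acid arrays, against 10.61, 12.94 and 12.96 on the DMIOA arrays and 10.39, 10.07 and 9.57 on the control arrays. Its fitted log2 difference of -3.85 had an SE of 1.36 and an adjusted p of 0.131, and the groups overlapped through replicate 3. Without retinoic acid replicate 3 FABP4 passed the test (adjusted p = 0.0114). PLIN2, the coat protein of small lipid droplets, was at 10.88, 10.80 and 11.98, against 11.43, 12.08 and 12.05 with DMIOA (log2 difference -0.63, adjusted p = 0.398). CIDEC, which fuses lipid droplets, was at 6.59, 6.50 and 7.28, against 6.20, 9.75 and 7.22 with DMIOA and 4.09, 3.76 and 3.59 in controls (adjusted p = 0.482). Its retinoic acid and DMIOA arrays overlapped, and all of them were above the control arrays.

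The lipases moved in different directions. LIPI rose, as given above, and LIPG, endothelial lipase, was at 12.39, 12.62 and 10.16 with retinoic acid, against 8.56, 9.05 and 7.27 with DMIOA and 9.07, 9.89 and 10.19 in controls. LIPG rose 10.8-fold (adjusted p = 0.0193), or 16.8-fold without retinoic acid replicate 3, and its call was lost without any 1 DMIOA array or retinoic acid replicate 1 or 2 (highest adjusted p = 0.0937). LPL, lipoprotein lipase, was at 3.91, 4.30 and 5.99 with retinoic acid, against 4.70, 5.04 and 7.50 with DMIOA. LPL was called lower (adjusted p = 0.0447) with 3 of the 6 arrays under 5, both arrays of replicate 1 among them, so no fold is given. The call was lost on leaving out any 1 array except control replicate 3 (highest adjusted p = 0.157) and without the pairing (0.644). In fatty acid and triglyceride synthesis 1 of 16 rose and 2 fell, where 5.49% of all named genes rose and 4.98% fell. Without the pairing 1 rose and 0 fell, and 0 of these calls stood on leaving out each array in turn. In fatty acid oxidation 0 of 15 were called by limma with or without the pairing, with 7 at an unadjusted p under 0.05. Over all 6945 named genes 1038 were higher and 808 lower at that unadjusted p. In cholesterol synthesis and uptake INSIG2, which retains the sterol sensor in the endoplasmic reticulum, was the 1 called gene of 20. That is 5%, against 10.5% of all named genes. INSIG2 was at 11.63, 11.61 and 11.55 with retinoic acid, against 10.60, 10.60 and 10.83 with DMIOA (1.89-fold higher, adjusted p = 0.00511, and 0.0614 with replicates 1 and 2 averaged).

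Among the signalling lists the called shares were 20.8% for TGF-beta, BMP and activin, 20.0% for FGF, 33.3% for IGF, 21.1% for Wnt and 42.9% for the 7 Notch genes at or above 5 on at least 1 of the 6 arrays, against 10.5% of all named genes. Of 24 TGF-beta, BMP and activin genes 2 rose and 3 fell, and 2 and 0 did so without the pairing. SMAD3, the signal transducer of TGF-beta and activin, was at 11.07, 11.09 and 11.25 on the retinoic acid arrays, against 9.10, 9.56 and 9.72 on the DMIOA arrays (3.20-fold higher, adjusted p = 0.00382). The ligand TGFB3 was at 14.10, 14.13 and 14.22, against 13.18, 12.43 and 13.18 with DMIOA (2.32-fold higher, adjusted p = 0.0127), a call lost without retinoic acid replicate 1 or 2 (highest adjusted p = 0.0675). The BMP target ID1 was at 6.76, 6.90 and 7.79 with retinoic acid, against 8.17, 7.81 and 8.74 with DMIOA (2.13-fold lower, adjusted p = 0.00781, and 0.0507 with replicates 1 and 2 averaged). ID4, of the same family, was at 7.56, 7.56 and 8.53, against 8.62, 8.97 and 10.16 with DMIOA (2.58-fold lower, adjusted p = 0.00725). Neither ID gene passed without the pairing (adjusted p = 0.232 for ID1 and 0.282 for ID4).

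Of 15 FGF ligands and receptors FGF19 and FGFR2 rose and FGF7 fell, and 1 was higher and 1 lower without the pairing. FGFR2, a receptor whose mammalian epithelial form binds FGF7, was at 8.78, 8.79 and 9.89 with retinoic acid, against 7.01, 7.92 and 7.76 with DMIOA (3.00-fold higher, adjusted p = 0.0166), a call lost without DMIOA replicate 1 or retinoic acid replicate 1 (highest adjusted p = 0.0801) and without the pairing (0.128). Of 12 genes in the IGF list 2 rose and 2 fell, and 0 were called without the pairing (2 higher and 6 lower at an unadjusted p under 0.05 by limma with it). IGFBP4, a binding protein that restrains IGF, was at 5.79, 5.94 and 7.90 with retinoic acid, against 8.11, 8.17 and 8.71 with DMIOA (3.46-fold lower, adjusted p = 0.0291). No IGF list member stayed called when each array was left out in turn. IGFBP4 lost its call without any 1 DMIOA array, retinoic acid replicate 1 or 2 or control replicate 2 (highest adjusted p = 0.128) and without the pairing (0.116).

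Of 19 Wnt genes 4 rose and 0 fell by limma, 5 and 0 at an unadjusted p under 0.05 and 1 and 0 without the pairing. The ligand WNT9A was at 9.65, 9.85 and 11.14 with retinoic acid, against 7.16, 7.91 and 9.92 with DMIOA (3.69-fold higher, adjusted p = 0.00932), a call lost without retinoic acid replicate 1 or 2 (highest adjusted p = 0.0537) and without the pairing (0.323). Of 9 Notch genes 2 were under 5 on all 6 arrays compared. Of the other 7, 2 fell and 1 rose by limma (4 and 2 at an unadjusted p under 0.05), 0 were called without the pairing and 0 of the 3 calls stood without every 1 array in turn. The Notch ligand DLL1 was at 2.12, 2.40 and 2.76 with retinoic acid, against 4.24, 3.55 and 4.44 with DMIOA and 7.31, 7.08 and 7.53 in controls. DLL1 was thus under 5 on all 6 arrays compared and was tested only because of its control arrays, so it is left out of these counts, though not of the plot of the gene lists, and neither a fold nor a p is given.

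Guidance genes changed in both directions, with 5 of 23 higher and 5 lower, where 5.49% of all named genes were higher and 4.98% lower. Without the pairing 3 were higher and 2 lower. PLXNA4 and ROBO2 were among the higher ones. PLXNA2, another plexin, was at 5.05, 5.21 and 5.21 with retinoic acid, against 9.32, 7.53 and 8.30 with DMIOA (9.37-fold lower, adjusted p = 0.00791). EPHA3, a receptor for ephrins, was at 6.43, 6.37 and 6.51, against 9.78, 10.12 and 8.94 with DMIOA (9.04-fold lower, adjusted p = 0.00155). The ephrin EFNA5 was at 9.62, 9.66 and 9.02, against 6.78, 8.18 and 7.94 with DMIOA (3.49-fold higher, adjusted p = 0.0241), a call lost without DMIOA replicate 1 or 3, retinoic acid replicate 1 or 2 or control replicate 1 (highest adjusted p = 0.0967). Integrins, cadherins and claudins had 3 higher and 4 lower of 20, which is 35%, against 10.5% of all named genes. Without the pairing 0 were higher and 2 lower, and 0 of the calls made with it stood without every 1 array in turn.

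Of 5 measured smooth muscle and pericyte markers 2 fell and 1 rose, and 1 and 0 did so without the pairing. The called share was 60%, against 10.5% of all named genes, or 3.73% of them without the pairing. CSPG4 fell, as given above. PDGFRB was at 7.55, 7.43 and 8.16 with retinoic acid, against 8.23, 8.80 and 8.82 with DMIOA (1.87-fold lower, adjusted p = 0.0189), a call lost without DMIOA replicate 3 or retinoic acid replicate 1 or 2 (highest adjusted p = 0.0748) and without the pairing (0.113). ABCC9, a subunit of potassium channels, was at 6.6, 6.52 and 7.70 with retinoic acid, against 5.24, 6.22 and 6.94 with DMIOA (1.75-fold higher, adjusted p = 0.0471). That call was lost on leaving out any 1 array except DMIOA replicate 2 (highest adjusted p = 0.16) and without the pairing (0.521), and the groups overlapped. ACTA2, smooth muscle actin, was at 5.87, 6.28 and 6.16, against 8.48, 7.17 and 7.78 with DMIOA (3.27-fold lower, adjusted p = 0.0201), a call lost without DMIOA replicate 3 or retinoic acid replicate 1 or 2 (highest adjusted p = 0.0813). The contractile and cytoskeleton list as a whole had 1 higher and 1 lower of 19, which is 10.5%, as over all named genes, with a median log2 difference of 0.01. Without the pairing 0 were higher and 1 lower. Among the fibroblast markers FAP, a membrane protease of activated fibroblasts, was 2.58-fold lower (adjusted p = 0.0305), a call lost without DMIOA replicate 1 or 3, retinoic acid replicate 1 or 2 or control replicate 1 (highest adjusted p = 0.131) and without the pairing (0.246).

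Housekeeping lists held few or no called genes. Of 41 ribosomal protein genes, 29 heat shock proteins and chaperones and 19 glycolysis genes 0 were called by limma with or without the pairing. At an unadjusted p under 0.05 there were 0 of the ribosomal, 4 of the heat shock and 5 of the glycolysis genes. Over all 6945 named genes there were 1038 higher and 808 lower at that p. Of 37 respiratory chain subunits 1 was called, where 10.5% of all named genes were. Their median log2 differences were -0.06, 0.12, -0.03 and 0.06. Of 28 glutathione and antioxidant genes 6 rose and 1 fell, which is 25%, and 1 and 0 did so without the pairing. GPX3, the secreted glutathione peroxidase, was at 11.21, 11.18 and 10.90 with retinoic acid, against 8.15, 9.71 and 8.42 with DMIOA (5.05-fold higher, adjusted p = 0.0147), a call lost without either of replicates 1 and 2 with retinoic acid or either of replicates 1 and 3 with DMIOA (highest adjusted p = 0.0727). GSTA3, a glutathione transferase, was at 3.69, 4.01 and 11.49 with retinoic acid, against 1.59, 2.21 and 9.73 with DMIOA and 1.93, 2.11 and 10.40 in controls. It was thus under 5 on both arrays of replicates 1 and 2, and although it is among the 6 called higher neither a fold nor a p is given. GSTA3 differed far more between replicate 3 and the others than between the groups.

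The 3 replicate pairs share no array, so each gives its own difference between retinoic acid and DMIOA. The differences in replicates 1 and 2 are less separate, since their retinoic acid arrays were nearly the same (r = 0.997). Across kept probe sets the paired differences correlated at r = 0.671 for replicates 1 and 2, 0.641 for 1 and 3 and 0.596 for 2 and 3. These are across probe sets, which are not independent. At least 2-fold higher were 642, 679 and 436 probe sets in replicates 1, 2 and 3, and at least 2-fold lower 787, 653 and 521. Replicate 3 had fewer changes of that size. Of 335 probe sets at least 2-fold higher in both replicates 1 and 2, 261 (77.9%) were also higher in replicate 3 and 198 at least 2-fold, while 43 were at least 2-fold lower. Of 366 at least 2-fold lower in both, 335 (91.5%) were also lower in replicate 3, 195 of them at least 2-fold, and 3 were at least 2-fold higher. Over all kept probe sets 52.4% were higher and 47.0% lower in replicate 3.

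The cell cycle and DNA replication genes differed between the pairs. Of 39 measured members 34 were higher with retinoic acid in replicate 1 and 34 in replicate 2, and 35 were lower in replicate 3, with median paired differences of 0.83, 0.84 and -1.07. In the limma fit over all pairs 0 of them rose and 1 fell (1 and 3 at an unadjusted p under 0.05), with or without the pairing. The 1 was CDKN1A, the cyclin kinase inhibitor p21. CDKN1A was at 9.53, 9.55 and 9.93 with retinoic acid, against 10.38, 10.70 and 10.36 with DMIOA (1.75-fold lower, adjusted p = 0.0216), a call lost without any 1 array of replicates 1 and 2 of either group (highest adjusted p = 0.103). Without retinoic acid replicate 3, 17 of the 39 were called higher, where 6.8% of all named genes were called higher and 12.4% called in either direction. In replicates 1 and 2 alone 10 were called higher, where 4.59% of all named genes were called higher and 8.39% called in either direction.

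The levels of the list show where the pairs part. Its median level was 7.54, 7.59 and 7.44 on the retinoic acid arrays, against 7.02, 7.24 and 8.62 on the DMIOA arrays and 5.64, 6.07 and 7.80 on the control arrays. By this median the retinoic acid arrays lay close together, and the DMIOA and control arrays of replicate 3 lay above those of replicates 1 and 2. Single members could differ from the median. TYMS, the enzyme that makes thymidylate for DNA synthesis, was at 6.62, 6.83 and 5.56 with retinoic acid, against 4.07, 4.18 and 6.64 with DMIOA. PLK1, a mitotic kinase, was at 9.22, 9.01 and 7.40, against 7.79, 7.90 and 8.86 with DMIOA. For TYMS and PLK1 the retinoic acid array of replicate 3 was also below those of replicates 1 and 2. In all, 31 named genes were at least 2-fold higher in replicates 1 and 2 and at least 2-fold lower in replicate 3. The list, which holds 0.562% of all named genes, held 7 of them. It does not hold every gene of cell division and DNA repair, so the 7 depends on its coverage. Among the 31 but outside the list were SKA3, CENPH, PLK4 and BRCA1, and also UNC5C, a guidance receptor. TYMS and PLK1 were chosen from the 31 genes after their values were seen.

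In replicate 3, 15 macrophage and leukocyte markers were at or above 5 on at least 1 of the 2 arrays, 11 of them lower and 4 higher with retinoic acid. The complement genes C1QA, C1QB and C1QC were at 4.74, 7.43 and 6.33 with retinoic acid, against 8.51, 10.09 and 9.49 with DMIOA, while CSF1R was at 8.95 against 9.42 and LAPTM5 at 10.14 against 10.15. Of those higher with retinoic acid, CD74 was at 7.25 against 6.18 and CTSS at 10.79 against 10.54. Each is 1 array against 1, with no replicate. The part of the macrophage markers in the cell cycle difference was not tested.

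**Figure D5:**
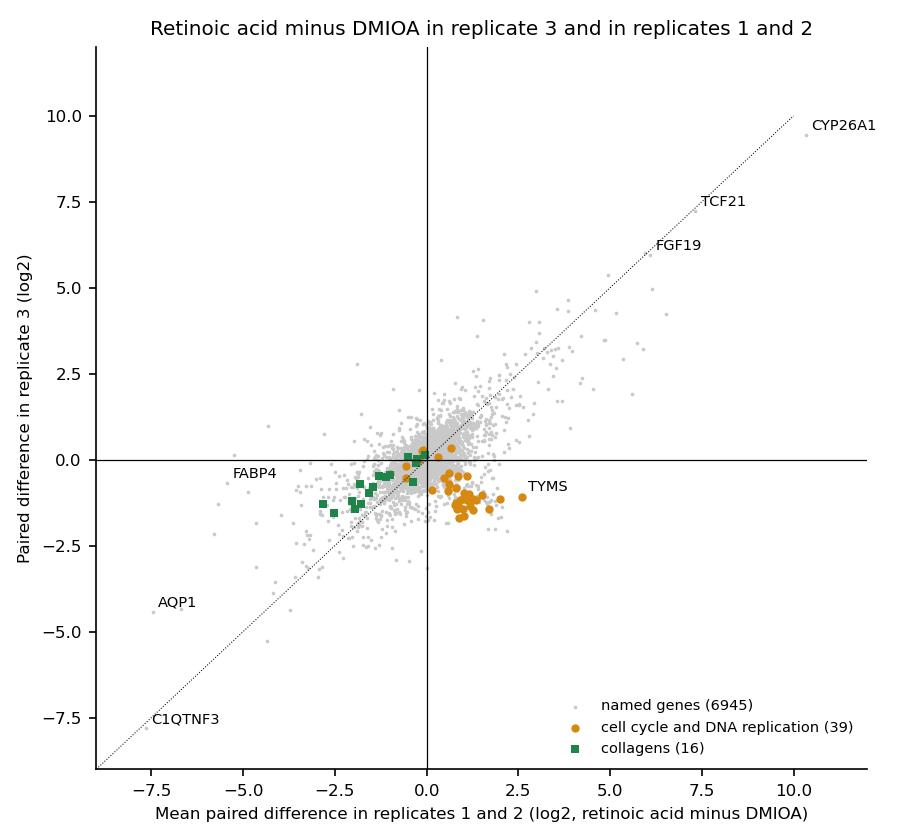
Paired log2 difference, retinoic acid minus DMIOA, in replicate 3 (vertical axis) and as the mean of replicates 1 and 2 (horizontal axis) for 6945 named genes, with the 39 cell cycle genes in orange and the 16 collagens in green; the dotted line marks equal differences. CYP26A1, TCF21, FGF19 and C1QTNF3 lie near the dotted line, and most cell cycle genes lie in the lower right quadrant.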

How the data were processed

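RNA was hybridised to chicken arrays in 3 groups of 3 samples. The values used are the deposited log2 values, made with GCRMA per the submitters' processing notes. GCRMA corrects background, normalises between arrays and summarises probes, and pulls dim values together, so folds from under 5 are given as bounds. The version was not given in the sources used here, no counts underlie the values, and the number of arrays limits the precision. Of 38535 probe sets, 37693 are chicken, and 12329 that reached a log2 value of 5 on 3 or more arrays were tested. Symbols came from the platform annotation, which gives 27178 probe sets 1 symbol, 177 several and 11180 none, and 26863 gene IDs matched RefSeq. A gene was read from its kept probe set with the highest mean, and probe sets that match several transcripts can mix related genes. Limma 3.58.1 in R 4.3.3 fitted group means and replicate number as a block over all 9 arrays (lmFit and eBayes, 4 residual degrees of freedom), with Benjamini-Hochberg adjustment over the tested probe sets and 0.05 as the threshold. Python 3.11.15 made the tables.

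The labels do not say what a replicate number shares. Deviations from the group means of same-numbered arrays correlated in all 9 pairs (r = 0.375 to 0.857), so the numbers were taken to pair the samples. This rests mainly on replicate 3, since retinoic acid replicate 1 correlated with DMIOA replicate 2 at 0.423 and retinoic acid replicate 2 with DMIOA replicate 1 at 0.606.

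Named genes were the 25 largest rises and 25 largest falls with the same sign in 3 pairs, the 15 largest bounded folds in each low group, at most 8 called and the first 4 listed members of each list, and the 5 smallest p-values in each direction with 6 arrays at or above 5. TYMS, PLK1 and some uncalled members given beside a list's calls fall outside that rule and were chosen after their values were seen. The comparison, gene lists and tests were chosen with earlier results of these data known. The fit was also run on data simulated from its own model with independent noise, which cannot judge the effect of near-duplicate arrays. Alternatives changed the pairing, arrays, filter, normalisation, spread, border and probe set rule, and leaving out control arrays was chosen after seeing the data.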

Additional observations from a re-analysis of the deposited data

How the results depend on the processing

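No call is better than 3 arrays a group allow, and values near or under 5 are limited by background. Counts are given as probe sets called, higher and lower, then named genes called. Without the replicate block there were 479, 261 and 218, and 259 genes, with 14 genes low with retinoic acid. The 6 arrays of the 2 groups alone gave 457, 244 and 213, 238 genes and 14 low with retinoic acid. Averaging replicates 1 and 2 of each group gave 313, 158 and 155, 186 genes, 23 low without and 14 low with retinoic acid. Replicates 1 and 2 alone gave 63 low without and 59 low with retinoic acid. A floor of 6 gave 15 and 14, a border of 4 gave 16 and 10, and a mean of at least 5 gave 6 low without retinoic acid, fewer probe sets being admitted by construction for the floor and the mean. Requiring at least 2-fold left 665, 303 and 362. Leaving out 1 of the 9 arrays gave 371 to 1560 probe sets, 204 to 802 higher and 167 to 758 lower, 211 to 862 genes, 27 to 39 low without and 14 to 55 low with retinoic acid. Array weights, median centring, cyclic loess, quantile normalisation, an intensity trend with a robust prior, no filter and replicate as a random effect kept every count within 1.5 times. The replicate block decided 28 of the 107 called genes named in the text, of which 79 were called without it, and averaging replicates 1 and 2 ended 40 calls. None of these 107 changed direction in any setting run. 5 uncalled genes did so. CIDEC, at -0.934 over all arrays, was at 0.165 without DMIOA replicate 2 and down to -1.716 on leaving out another array. On leaving out 1 array ALDH1A1 ranged from -0.135 to 0.078, HOXA11 from -0.388 to 0.137, HOXA9 from -0.053 to 0.074 and SERPINE2 from -0.139 to 0.006. With replicates 1 and 2 averaged ALDH1A1 was at 0.011 and HOXA11 at 0.005, and HOXA9 was at -0.033 with array weights, -0.004 with cyclic loess and -0.044 with replicates 1 and 2 alone. The cause of these differences was not tested.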
